A study of Mus musculus with 23 samples.

Results

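Interferon-stimulated genes are the genes that a cell switches on when interferon binds to its surface. Here they are the protein-coding genes whose symbols belong to the Ifit, Ifi, Oas, Gbp, Irgm, Iigp, Igtp and Irf families, together with 9 single genes, among them Isg15, Mx1, Mx2, Rsad2, Usp18, Stat2, Bst2 and Zbp1. The rule uses symbols alone and no measured value, but it was chosen with earlier results of these data known. It found 65 genes among the 22852 that both deposited tables list. They comprise 17 Ifi genes, 11 guanylate-binding protein (Gbp) genes, 9 Oas genes, 9 interferon regulatory factors (Irf), 6 Ifit genes, 4 immunity-related GTPase genes (Igtp, Iigp1, Irgm1 and Irgm2) and 9 single genes.

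Interferons act through cell-surface receptors and JAK kinases, which phosphorylate transcription factors such as Stat2. With Irf9, Stat2 is part of a complex that binds the interferon-stimulated response element, while interferon gamma also acts through the gamma-activated site. The targets restrict viruses and intracellular microbes: Ifit proteins bind foreign RNA, Oas enzymes sense double-stranded RNA, Gbp proteins and immunity-related GTPases attack vacuoles that hold microbes, and Usp18 damps the receptor signal. In liver, hepatocytes as well as the resident macrophages, called Kupffer cells, respond to interferon.

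Bulk RNA of whole liver was sequenced from 23 samples in 4 groups, with 6 LKO males, 6 LKO females, 6 control females and 5 control males (replicates 1, 2, 3, 4 and 6). As labelled, the genotypes were B100-Control and B100-LKO, every group was WD-fed for 16 weeks, and the livers were taken in the fed state. All groups therefore share the B100 genotype and the diet, and LKO is the ablation of hepatic Cpt1a, the gateway enzyme of mitochondrial fatty acid oxidation, that the title of the series names. The allele, the driver of the ablation, the ages and the composition of the diet are not given in the sources used here. The labels number the samples but do not say how animals relate to them, so p-values measure the spread between these samples.

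The deposited counts summed to between 14224665 and 19626662 per sample. Cpt1a was measured at 17.7% of the control mean in LKO males and 19.5% in LKO females, and the groups did not overlap in either sex (exact permutation test of log2(CPM + 1), two-sided p = 0.00216 in each sex, the smallest that either design can give). CPM are read counts scaled to library size with TMM factors. Hepatocyte markers summed to at least 50497 CPM in every sample and Kupffer cell markers to between 409 and 1206 CPM, so both kinds of marker were present. Markers of plasmacytoid dendritic cells, known for making interferon, summed to between 0.480 and 3.17 CPM. In bulk RNA, fewer cells of a type and less RNA per cell cannot be told apart.

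Most members were expressed at low to moderate levels. On the length-corrected FPKM scale deposited by the authors, 47 of the 65 members had a mean above 1 FPKM over all samples and 13 had a mean above 10 FPKM, with a median of 2.47 FPKM. Bst2, which tethers budding virus particles to the cell, stood first with a mean of 456 FPKM, followed by Ifi27 at 180 FPKM and Ifi27l2b at 43.6 FPKM. Ifi27 and Ifi27l2b encode small membrane proteins induced by interferon. Irf7, which amplifies interferon production, had a mean of 32.8 FPKM, and Irf3, its constitutive relative, 22.4 FPKM. Ifi214, Ifit1bl2, Irf4 and Oas1h had too few counts for any fit and Ifit1bl1 passed only the filter of the interaction fit. That left 60 members tested in each comparison of a pair of groups.

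Many members sit in clusters of related genes, and members of a cluster share sequence, so reads could be split between near-identical copies and the counts of the Gbp, Ifi2xx, Oas1 and Ifit3 copies are uncertain. On the coordinates of the deposited tables, 10 Ifi genes from Ifi206 to Ifi205 lay on chromosome 1 between 173296051 and 173859376. The 6 Ifit genes lay on chromosome 19 between 34528094 and 34627409. The Gbp genes fell into a run of 5 on chromosome 3 between 142199739 and 142343769 and a run of 6 on chromosome 5 between 105162016 and 105494338. A run of 7 Oas genes lay on chromosome 5 between 120868398 and 121045584. Igtp (58090382 to 58098417) and Irgm2 (58090444 to 58113608) overlapped on the + strand of chromosome 11. On the - strand of chromosome 5, Gbp8 (105162016 to 105287406), Gbp9 (105225496 to 105287405) and Gbp4 (105263633 to 105287452) overlapped, with Gbp9 wholly inside Gbp8. How reads in these overlaps were counted is not given in the sources used here. The counts of all these genes are therefore uncertain as well. The submitters' processing notes name mm39 without a role, and these positions come from the tables alone.

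The start regions of 8 members are shown because they carry the letters that the interferon-activated complex is known to bind, and because these genes, apart from Isg15, recur in the results below. Each line gives 60 bases upstream of the RefSeq start in build GRCm38.p6, 5′ to 3′ on the strand of the gene, and capitals mark GAAA, any 2 bases and GAAA, or the reverse complement (TTTC, any 2 bases and TTTC), the core of the interferon-stimulated response element.
Ifit1, chr19:34640770-34640829, + strand: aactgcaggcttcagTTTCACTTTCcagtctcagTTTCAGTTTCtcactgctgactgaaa
Ifit3, chr19:34583358-34583417, + strand: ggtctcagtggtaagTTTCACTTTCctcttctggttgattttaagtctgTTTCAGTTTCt
Ifit3b, chr19:34607754-34607813, + strand: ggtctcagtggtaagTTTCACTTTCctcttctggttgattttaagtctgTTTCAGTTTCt
Isg15, chr4:156200852-156200911, - strand: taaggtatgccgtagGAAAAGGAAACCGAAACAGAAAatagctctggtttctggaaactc
Gbp3, chr3:142559984-142560043, + strand: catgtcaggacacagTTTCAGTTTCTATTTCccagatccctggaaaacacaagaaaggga
Oas1a, chr5:120907530-120907589, - strand: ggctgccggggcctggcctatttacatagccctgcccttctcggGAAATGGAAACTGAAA
Oas1g, chr5:120887616-120887675, - strand: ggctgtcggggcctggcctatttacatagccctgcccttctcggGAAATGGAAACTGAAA
Igtp, chr11:58199478-58199537, + strand: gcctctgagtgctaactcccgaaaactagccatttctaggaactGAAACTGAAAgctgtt

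The Ifit3 and Ifit3b stretches were identical over all 60 bases, and those of Oas1a and Oas1g differed at 1 of 60. Over 300-base windows, from 250 bases before to 50 after the start, 46 members matched a RefSeq entry. The response element letters, on either strand, were present in 30 of these 46 members (65.2%), against 3.99% of the 27025 symbols with a window. TTCNNNGAA, the gamma-activated site, which reads the same on both strands and does not share the core of the other motif, was present in 11 of 46 (23.9%), against 9.55% of all symbols. Both motifs were found in 7 members and neither in 12. In 26 members a response element match lay within 150 bases before the start, and 13 members held 2 or more matches, which may overlap as in Isg15, where 3 lie in 1 run. A match is a description of letters and not evidence of binding.

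A pair of control livers stood apart for these genes. Control female replicate 6 held the highest value of its group in 53 of the 61 members tested in any fit (86.9%), against 18% of all genes tested. Its level over the median of the other control females had a median of 1.70 across members and 0.999 across all genes, and 37 members were above 1.5 times that median. Control male replicate 4 was the highest of its group for 60.7% of the members, against 25.3% of all genes. To summarise each liver, log2(CPM + 1) was averaged over the members and set relative to the control male mean. The control males averaged 0 ± 0.206 (SD, n = 5), the LKO males 0.264 ± 0.212 (SD, n = 6), the control females 0.615 ± 0.302 (SD, n = 6) and the LKO females 0.407 ± 0.162 (SD, n = 6). The highest control female, replicate 6, reached 1.20 and the highest control male, replicate 4, reached 0.309. The median over all tested members and the number called by edgeR are therefore also given below without these libraries where they moved. Counts by sign, by unadjusted p or by overlap, and the DESeq2 calls, are given with these libraries included.

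**Figure D1:**
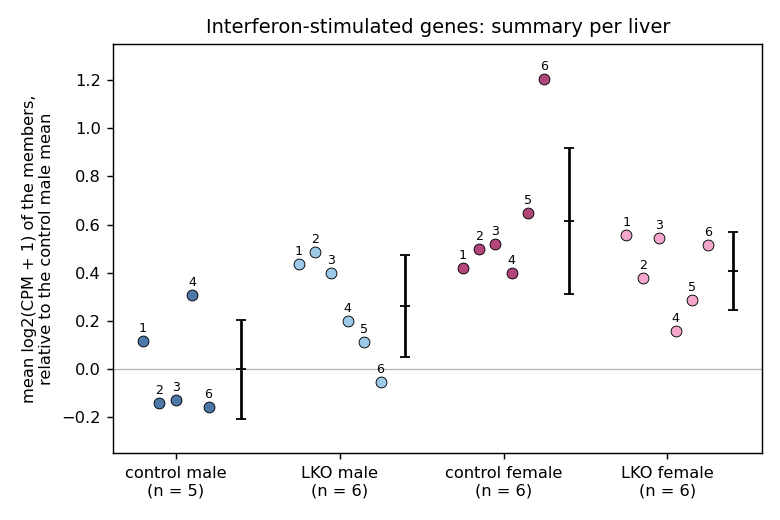
Mean log2(CPM + 1) of the members in each liver relative to the control male mean (y axis, log2 units), by group (x axis), with 1 point per liver and the group mean and SD. Control females average 0.615, and their highest liver, at 1.20, lies above every other liver.

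In males, LKO against control, no member passed the test. Of 60 members tested, 0 were called at an edgeR quasi-likelihood adjusted p under 0.05, where 1 of 13805 genes was (0.00724%), namely Cpt1a. Without adjustment, 15 members were higher in LKO at p under 0.05 and 0 were lower, while 5.23% of all genes tested were higher and 7.22% lower at that level. The log2 fold change was above 0 for 52 members and below 0 for 8, and above 0 for 52.1% of all genes. The median over members was 0.30, against 0.01 over all genes, and it was 0.43 without control male replicate 4. The lowest adjusted p among members was 0.266, for Oasl2 and Gbp3. DESeq2, run without the filter on low counts, called 0 members and 106 of 24422 genes (0.434%). The groups did not overlap in 0 members, against 1.69% of all genes.

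Gbp3, a guanylate-binding protein, measured 7.89, 6.64, 4.77, 8.72 and 5.33 CPM in the control males and between 7.92 and 14.9 CPM, with a median of 10.4, in the LKO males. All 6 LKO males were above the control mean, yet the groups overlapped, since control replicate 4 exceeded the lowest LKO male. The log2 fold change was 0.74 (SE 0.21, adjusted p = 0.266, edgeR). Its neighbour in role Gbp10 measured 0.857, 0.763, 0.884, 2.40 and 1.16 CPM in control males and 1.19 to 6.77 CPM, with a median of 2.32, in LKO males. Control replicate 4 again lay inside the LKO range, and the log2 fold change was 1.40 (SE 0.46, adjusted p = 0.28, edgeR). Gbp10 is thinly covered, with between 13 and 30 counts in the control males. All 11 Gbp genes had log2 fold changes above 0 in males, with a median of 0.50, and 4 of them had an unadjusted p under 0.05.

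Oasl2, an Oas-like protein, measured 10.04, 6.34, 8.42, 7.92 and 6.83 CPM in control males and 9.64 to 14.7 CPM, with a median of 11.3, in LKO males. The groups met at 1 sample, control replicate 1, and the log2 fold change was 0.55 (SE 0.15, adjusted p = 0.266, edgeR). Oas1a, an oligoadenylate synthetase, measured 9.12, 6.05, 7.60, 13.8 and 9.09 CPM in control males and 8.71 to 19.5 CPM in LKO males, at a log2 fold change of 0.65 (SE 0.24, adjusted p = 0.312, edgeR). All 8 tested Oas genes had log2 fold changes above 0, with a median of 0.48, and 5 of the 8 had an unadjusted p under 0.05. Among the Ifi genes 13 of 16 lay above 0 with a median of 0.26. The lowest p of that family belonged to Ifi206, a DNA-sensor relative of the chromosome 1 cluster, at a log2 fold change of 0.89 (SE 0.31, adjusted p = 0.303, edgeR). Ifi206 stayed under 2.2 CPM in every male, with 0.560 to 1.17 CPM in controls and 0.808 to 2.12 CPM in LKO.

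In females, LKO against control, the members lay on the other side of 0, and again none passed the test. Of 60 members, 0 were called by edgeR, where 194 of 13684 genes were (1.42%). Without adjustment 20 members were lower in LKO at p under 0.05 and 3 were higher, while 7.33% of all genes tested were lower and 8.31% higher at that level. The log2 fold change was below 0 for 49 members and above 0 for 11, where 51.1% of all genes lay above 0, with a median of -0.26, against 0.01 over all genes. Ifit3b came nearest to the threshold and was the only member of the 60 whose groups did not overlap, against 0.585% of all genes not overlapping in the lower direction. Without control female replicate 6 the median was -0.12 and 1 member, Gbp2, was called higher in LKO; Gbp2 is named here after its values were seen.

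Ifit3b, an RNA-binding Ifit protein nearly identical to Ifit3, measured 7.60 to 23.1 CPM in the control females, with a median of 9.73, and 3.69 to 7.48 CPM in the LKO females, with a median of 5.05. Every LKO female lay below every control female, the nearest pair being 7.48 and 7.60 CPM. The log2 fold change was -1.13 (SE 0.27, adjusted p = 0.0507, edgeR), just short of the threshold, and it ranged from -1.25 to -0.80 when single livers were left out, the smallest size being without control replicate 6. Over all alternatives its adjusted p ranged from 0.00208 to 0.116 (edgeR or DESeq2). Ifit3 measured 32.4 to 96.4 CPM in control females, with a median of 40.5, and 15.5 to 35.3 CPM in LKO females, with a median of 27.7. These groups overlapped by a small margin, at a log2 fold change of -0.88 (SE 0.26, adjusted p = 0.111, edgeR). Ifit1, the founding member of the family, measured 16.1 to 48.9 CPM in control females, with a median of 20.1, and 9.03 to 18.98 CPM in LKO females, with a median of 13.6. All 6 LKO females were below the control mean, at a log2 fold change of -0.88 (SE 0.26, adjusted p = 0.109, edgeR). Without control replicate 6, Ifit3 lay at -0.56 and Ifit1 at -0.58.

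DESeq2 on the same counts called 6 members lower in LKO females, namely Ifit3b, Ifit3, Ifit1, Mx2, Gbp10 and Irf9. Without a filter on low counts, it called 554 of 24889 genes (2.23%). The calls thus depended on the test. They also depended on the settings and on the livers included. Ifit3b was called in 8 of 19 alternatives, which comprise DESeq2, 12 edgeR fits with single livers left out and other edgeR settings. Mx2, a dynamin-like antiviral GTPase, measured 4.48 to 15.8 CPM in control females and 2.13 to 5.87 CPM in LKO females, at a log2 fold change of -1.05 (SE 0.31, adjusted p = 0.112, edgeR). Gbp10 measured 2.89 to 8.64 CPM in control females and 2.13 to 3.16 CPM in LKO females, at -0.80 (SE 0.23, adjusted p = 0.0987, edgeR). Irf9, the DNA-binding partner of Stat2, measured 35.9 to 53.8 CPM in control females and 27.0 to 37.9 CPM in LKO females, at -0.39 (SE 0.11, adjusted p = 0.0954, edgeR). For Mx2, Gbp10 and Irf9 alike, all 6 LKO females were below the control mean and the ranges overlapped. Control replicate 6 was the highest control female in each of them and raised that mean. With single livers left out, the log2 fold change ranged from -1.22 to -0.75 for Mx2. It ranged from -0.91 to -0.56 for Gbp10 and from -0.45 to -0.30 for Irf9.

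The family medians in females were as follows. The 4 tested Ifit genes had a median of -0.88 and all lay below 0. The 8 tested Oas genes also all lay below 0, with a median of -0.33, led by Oasl1, another Oas-like protein, at 22.6 to 54.1 CPM in control females and 11.7 to 27.5 CPM in LKO females, a log2 fold change of -0.66 (SE 0.23, adjusted p = 0.176, edgeR), which was -0.44 without control replicate 6. The 4 immunity-related GTPases lay between -0.36 and -0.26. Among them Iigp1, which coats vacuoles of intracellular parasites, measured 168 to 249 CPM in control females and 141 to 197 CPM in LKO females, at -0.26 (SE 0.11, adjusted p = 0.265, edgeR), or -0.17 without control replicate 6. The Ifi genes were split, with 9 of 16 below 0 and a median of -0.01. Ifi27l2b lay on the upper side in females, at 24.5 to 48.3 CPM in control and 39.4 to 79.8 CPM in LKO, a log2 fold change of 0.54 (SE 0.18, adjusted p = 0.157, edgeR).

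**Figure D2:**
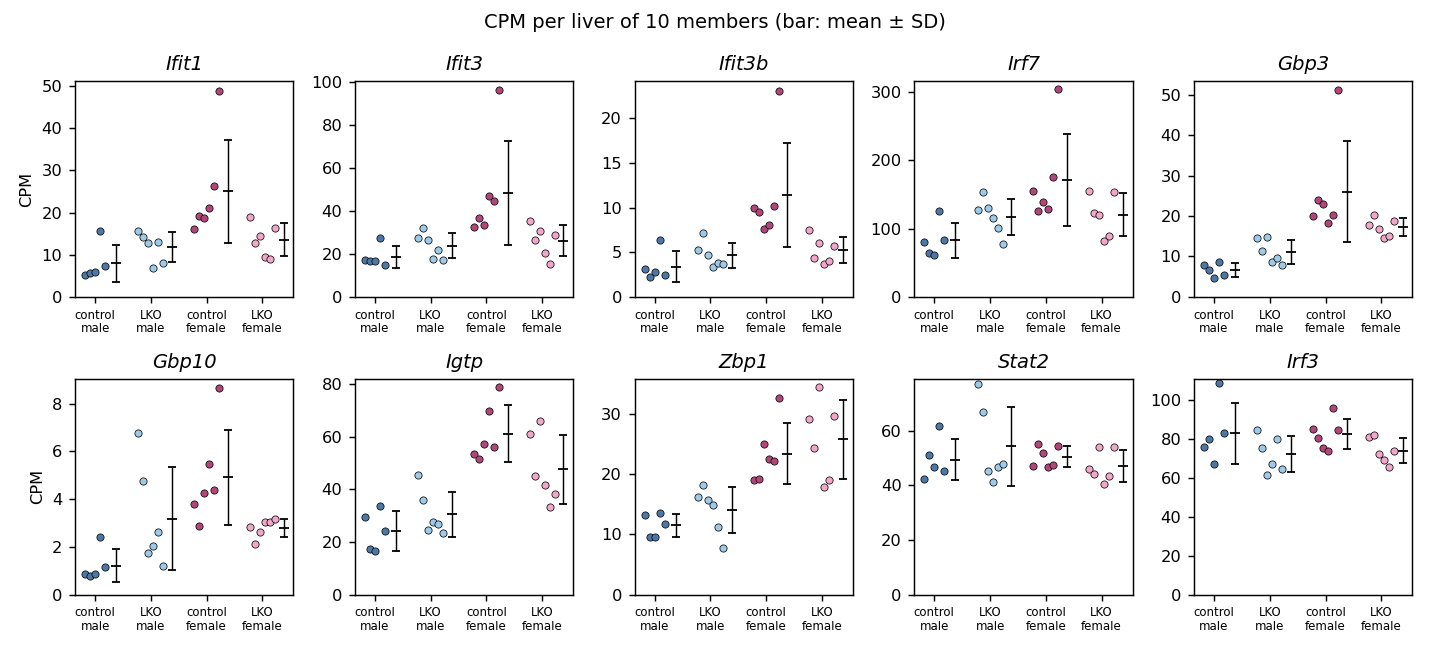
CPM (y axis, from 0) of 10 members in each liver by group (x axis), with 1 point per liver and a bar for the mean ± SD. In Ifit1, Ifit3, Ifit3b, Gbp3 and Irf7 the highest control female is replicate 6, at 48.9 CPM in Ifit1, while Stat2 and Irf3 show overlapping groups.

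The signal transducer Stat2 lay near 0 by genotype. Stat2 measured 42.3, 51.1, 46.6, 61.5 and 45.2 CPM in control males and lay between 40.3 and 77.1 CPM in the other groups. Its log2 fold change was 0.13 (SE 0.16, adjusted p = 0.806, edgeR) in males and -0.10 (SE 0.09, adjusted p = 0.641, edgeR) in females. Irf7, by contrast, measured 80.3, 64.1, 61.4, 126 and 83.3 CPM in control males and 77.0 to 154 CPM, with a median of 121, in LKO males, and 126 to 304 CPM, with a median of 147, in control females and 81.8 to 155 CPM, with a median of 121, in LKO females. The 2 LKO groups thus shared a median of 121 CPM. The control medians were 80.3 CPM in males and 147 CPM in females, while the control ranges met at 126 CPM. Its log2 fold change was 0.50 (SE 0.20, adjusted p = 0.341, edgeR) in males and -0.50 (SE 0.22, adjusted p = 0.284, edgeR) in females, where it was -0.26 without control replicate 6.

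The other interferon regulatory factors overlapped between genotypes in both sexes. Irf1, an early activator downstream of interferon gamma, had group means between 18.6 and 22.1 CPM, and log2 fold changes of 0.10 (SE 0.14) in males and -0.20 (SE 0.14) in females. Irf2, a competitor of Irf1, measured 33.8 to 59.7 CPM in control males and 32.3 to 49.8 CPM in LKO males, and lay at -0.33 in females (SE 0.10, adjusted p = 0.129, edgeR). Irf3 had group means between 72.1 and 82.9 CPM and log2 fold changes of -0.21 (SE 0.12) in males and -0.16 (SE 0.08) in females. Irf5, which acts below Toll-like receptors, lay at -0.23 (SE 0.21) and -0.19 (SE 0.16). Irf8, a factor of the myeloid lineage, measured 15.6 to 18.5 CPM in control females and 16.7 to 20.8 CPM in LKO females, at 0.23 (SE 0.08, adjusted p = 0.155, edgeR). Irf9 lay at 0.20 (SE 0.19, adjusted p = 0.724, edgeR) in males. Irf4, a lymphoid factor, held between 2 and 35 counts per sample and was not tested.

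Of the 60 members tested in both sexes, 43 were higher in LKO males and lower in LKO females, 9 were higher in both, 6 lower in both and 2 lower in males and higher in females. The difference between the sexes was tested as the interaction of genotype and sex, female effect minus male effect, and 0 of 61 members were called by edgeR, as were 0 of 14503 genes (0%). At an unadjusted p under 0.05, 25 members had an interaction below 0 and 0 above, against 5.94% of all genes below and 6.98% above. DESeq2, without a filter on low counts, called 3 members, Gbp3, Gbp10 and Ifit3b, among 88 of 22831 genes (0.385%). The interaction was below 0 for 51 of 61 members, where 51.0% of all genes lay above 0, with a median of -0.58, against 0.01 over all genes. Gbp10 had an interaction of -2.21 (SE 0.52, adjusted p = 0.142, edgeR), Gbp3 of -1.33 (SE 0.32, adjusted p = 0.143, edgeR) and Ifit3b of -1.60 (SE 0.41, adjusted p = 0.164, edgeR). Oas1a and Ifit1 lay at -1.14 (SE 0.34) and -1.46 (SE 0.43). The median was -0.41 without control female replicate 6, -0.69 without control male replicate 4, where edgeR called 2 members (Gbp10 and Ifit3b) among 17 genes, and -0.54 without both, where it called 0 of either.

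**Figure D3:**
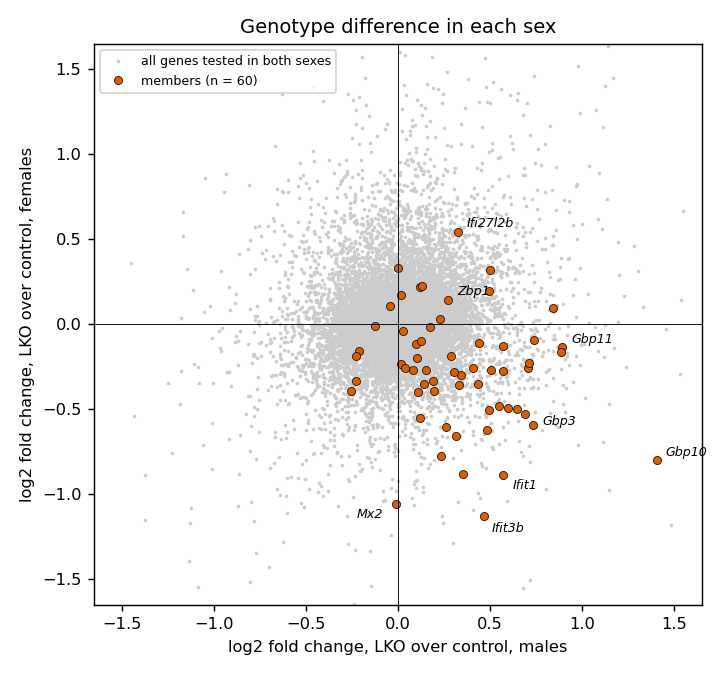
Log2 fold change of LKO over control in males (x axis) and in females (y axis) for 13393 genes tested in both sexes (grey) and for the 60 members tested in both (orange). Of the members, 43 lie at the lower right, and 57 genes but 0 members fall outside the axes.

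Among the control livers, 24 interferon-stimulated genes were higher in females than in males and the other 36 tested did not pass. Of 60 members, 24 were called higher and 0 lower by edgeR, where 8.80% of all 13699 genes tested were called higher and 9.20% lower. The log2 fold change was above 0 for 54 members, against 50.5% of all genes, with a median of 0.85, against 0.00 over all genes. In 18 members every control female exceeded every control male, against 5.23% of all genes. Called were 6 of 11 Gbp genes, 5 of 8 Oas genes, 3 of 4 Ifit genes, 2 of 4 immunity-related GTPases, 4 of 16 Ifi genes, 1 of 8 Irf genes and 3 of 9 single genes. Males and females were deposited in separate tables and the raw counts were taken as comparable, so sex cannot be told apart from any technical step that differed between the tables. Without control female replicate 6, 20 members were called and the median was 0.65, and without control male replicate 4, 34 were called. With both left out, 30 members were called and the median was 0.69.

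The largest difference was in Gbp10, which measured 0.763 to 2.40 CPM in control males and 2.89 to 8.64 CPM, with a median of 4.33, in control females. The groups did not overlap, and females were 4.11-fold higher, a log2 fold change of 2.04 (SE 0.35, adjusted p = 0.00188, edgeR). Gbp3, at 4.77 to 8.72 CPM in control males and 18.2 to 51.1 CPM in control females with a median of 21.5, was 3.91-fold higher, a log2 fold change of 1.97 (SE 0.28, adjusted p = 0.000571, edgeR). The lowest female value was above 2 times the highest male value, and the log2 fold change was still 1.66 without female replicate 6. Gbp7, which helps load defence factors onto microbes, measured 10.9 to 22.7 CPM in control females and 4.01 to 8.88 CPM in control males, at 1.17 (SE 0.23, adjusted p = 0.00501, edgeR). Gbp2b and Gbp9, 2 further members of this family, were higher at 1.05 (SE 0.25) and 0.97 (SE 0.23), with edgeR adjusted p of 0.0114 and 0.0108, and neither had overlapping groups.

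The Ifit genes were the family with the highest median, 1.52. Ifit1 measured 5.08, 5.76, 5.83, 15.7 and 7.35 CPM in control males, and 16.1 to 48.9 CPM in control females. Control male replicate 4 stood apart from the other males and lay just under the lowest female, so the groups did not overlap. The log2 fold change was 1.67 (SE 0.34, adjusted p = 0.00574, edgeR), and it ranged from 1.37 to 2.05 when single livers were left out. Ifit3 measured 17.3, 16.5, 16.8, 27.6 and 14.8 CPM in control males against 32.4 to 96.4 CPM in control females, at 1.38 (SE 0.28, adjusted p = 0.00524, edgeR). Ifit3b measured 3.12, 2.17, 2.83, 6.40 and 2.43 CPM against 7.60 to 23.1 CPM, at 1.77 (SE 0.34, adjusted p = 0.00418, edgeR). In all 3 genes male replicate 4 and female replicate 6 were the highest of their groups.

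Igtp, an immunity-related GTPase that interferon gamma induces, measured 29.5, 17.1, 16.7, 33.5 and 24.1 CPM in control males and 51.7 to 79.0 CPM, with a median of 56.6, in control females. No male reached the lowest female, and the log2 fold change of 1.34 (SE 0.19) had the lowest adjusted p of any member (adjusted p = 0.000563, edgeR). Irgm2, another immunity-related GTPase, measured 24.5, 20.3, 15.8, 41.9 and 24.6 CPM against 38.4 to 64.6 CPM, at 0.94 (SE 0.22, adjusted p = 0.0104, edgeR), and here male replicate 4 overlapped the females. Zbp1, a sensor of Z-form nucleic acids that can start cell death, measured 9.48 to 13.6 CPM in control males and 19.04 to 32.7 CPM in control females. These groups did not overlap, at 1.02 (SE 0.15, adjusted p = 0.000868, edgeR).

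Among the Oas genes, Oas1a measured 6.05 to 13.8 CPM in control males and 14.5 to 33.4 CPM in control females, at 1.18 (SE 0.24, adjusted p = 0.00606, edgeR). Oas1g, whose start region differs from that of Oas1a at a single base of those printed, measured 2.70 to 4.08 CPM against 5.43 to 15.5 CPM, at 1.32 (SE 0.27, adjusted p = 0.00548, edgeR). Oas2, a larger enzyme of the family, lay at 0.87 (SE 0.18, adjusted p = 0.00663, edgeR) and Oasl2 at 1.20 (SE 0.29, adjusted p = 0.0129, edgeR). The groups did not overlap in any of these 4 genes, whereas Oasl1 measured 17.8 to 40.0 CPM in males and 22.6 to 54.1 CPM in females and was not called, at 0.42 (SE 0.25, adjusted p = 0.264, edgeR). Ifi44, a cytoplasmic protein induced by interferon, measured 3.43, 2.47, 2.95, 6.001 and 3.94 CPM in control males and 8.16 to 29.5 CPM in control females, at 1.80 (SE 0.36, adjusted p = 0.00473, edgeR). Ifi206 and Ifi213, both of the chromosome 1 cluster, lay at 1.44 (SE 0.30) and 0.88 (SE 0.20), with edgeR adjusted p of 0.00598 and 0.0107. Usp18, the damper of receptor signalling, measured 13.04 to 26.3 CPM in males and 21.8 to 58.6 CPM in females, with overlap, at 1.04 (SE 0.27, adjusted p = 0.0176, edgeR).

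Irf7 was the only Irf gene of the 8 tested that was called, at 1.04 (SE 0.24, adjusted p = 0.0113, edgeR), and its groups met, since the highest male and the lowest female both measured 126 CPM. Stat2 lay at 0.03 (SE 0.10, adjusted p = 0.878, edgeR). Of the abundant members, Bst2, Ifi27 and Iigp1 also overlapped, whereas Igtp and Ifit3, given above, did not. Bst2 measured 416, 354, 343, 467 and 358 CPM in control males and 381 to 619 CPM in control females, at 0.19 (SE 0.14, adjusted p = 0.371, edgeR). Ifi27 measured 175, 145, 147, 336 and 294 CPM against 247 to 420 CPM, at 0.46 (SE 0.24, adjusted p = 0.195, edgeR). Iigp1 measured 114, 123, 100.4, 215 and 136 CPM against 168 to 249 CPM, at 0.48 (SE 0.18, adjusted p = 0.0777, edgeR). Male replicate 4 lay within the female range in each of these 3 genes. Ifi27l2b lay at -0.31 (SE 0.31, adjusted p = 0.526, edgeR). Over members with a promoter window, the median sex difference was 1.05 for the 27 tested with response element letters and 0.28 for the 14 without. By genotype, the medians of the same genes were 0.33 with the letters and 0.13 without in males, and -0.27 with and -0.22 without in females. Copies alike at the start, such as Ifit3 and Ifit3b, counted separately here, and the letters were not separated from gene family.

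In LKO livers the same comparison of females with males gave fewer calls and a median nearer to 0. This comparison was added after the data were seen. Of 60 members, 8 were called higher and 0 lower by edgeR, where 5.89% of all 13778 genes tested were called higher and 6.51% lower. The median was 0.11, against 0.01 over all genes, and groups did not overlap in 2 members, against 2.78% of all genes in that direction. Gbp3, Gbp7, Igtp and Zbp1 were called in control and in LKO livers, while Gbp2, Gbp8, Ifi205 and Ifi27l2a, named after their values were seen, were called in LKO and not in control livers. Of the 24 members called in control livers, 24 had a smaller log2 fold change in LKO livers, where 22 remained above 0. Because these 24 were chosen by their control values, this count is a description, and the difference itself is the interaction above, which called 0 members.

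Zbp1 had the highest log2 fold change of the 4 genes called in both genotypes, at 7.69 to 18.2 CPM in LKO males and 17.8 to 34.5 CPM in LKO females, a log2 fold change of 0.88 (SE 0.20, adjusted p = 0.00943, edgeR). Gbp7 measured 5.88 to 8.93 CPM in LKO males and 10.004 to 12.3 CPM in LKO females, without overlap, at 0.58 (SE 0.11, adjusted p = 0.00269, edgeR). Gbp3 measured 7.92 to 14.9 CPM and 14.5 to 20.2 CPM, at 0.63 (SE 0.16, adjusted p = 0.0149, edgeR), and Igtp 23.4 to 45.3 CPM and 33.3 to 66.1 CPM, at 0.64 (SE 0.19, adjusted p = 0.0373, edgeR). The call for Igtp was lost in 7 of 12 fits with single livers left out, namely LKO male replicates 3, 4, 5 and 6 and LKO female replicates 1, 2 and 3, at an edgeR adjusted p of up to 0.0868. Uncalled genes lay on both sides of 0, from Oasl1 at -0.56 (SE 0.21, adjusted p = 0.0939, edgeR) to Gbp2b at 0.63 (SE 0.25, adjusted p = 0.115, edgeR), with Ifi44 at 0.57 (SE 0.22, adjusted p = 0.116, edgeR). Gbp10 measured 1.19 to 6.77 CPM in LKO males and 2.13 to 3.16 CPM in LKO females, at -0.17 (SE 0.34, adjusted p = 0.797, edgeR). Ifit3b lay at 0.16 (SE 0.21, adjusted p = 0.691, edgeR), Ifit1 at 0.20 (SE 0.22, adjusted p = 0.608, edgeR), Oas1a at 0.04 (SE 0.21, adjusted p = 0.936, edgeR) and Irf7 at 0.04 (SE 0.18, adjusted p = 0.917, edgeR). The genotype and sex comparisons share samples, so their values are given side by side only.

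**Figure D4:**
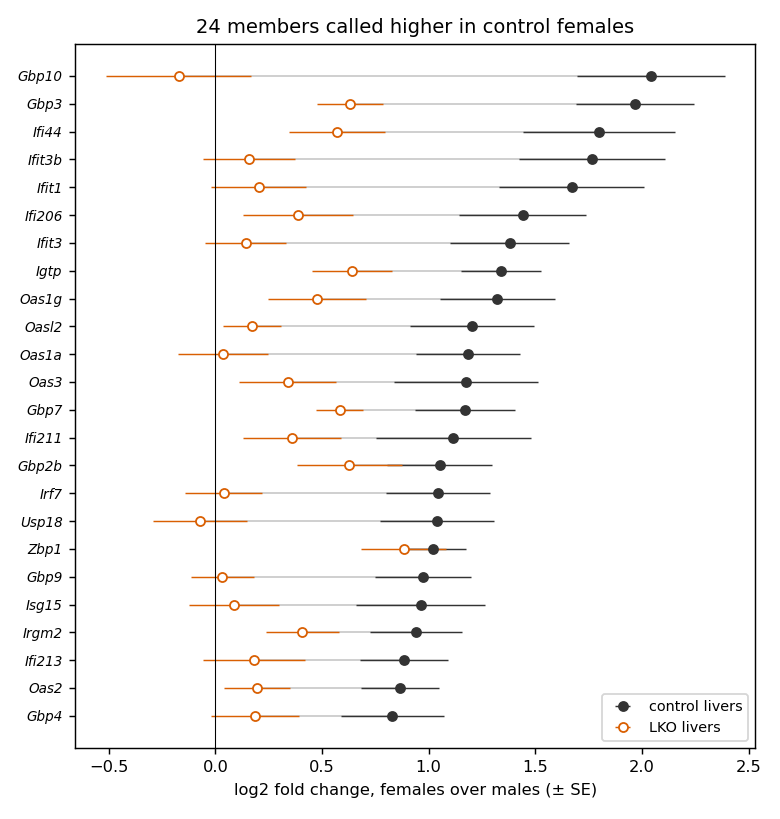
Log2 fold change of females over males (x axis, ± SE) for the 24 members called higher in control females (y axis), in control livers (filled) and in LKO livers (open). The LKO value is the smaller one in 24 of 24 members, as for Gbp10 with 2.04 in control and -0.17 in LKO livers.

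The rest of the pathway was followed through a list of ligands, receptors, regulators, sensors and other targets outside the member rule. Of the 9 ligands listed, 0 had enough counts to be tested, and Ifng, the type II ligand, held at most 3 counts in any sample. Ifnb1, the main early type I ligand, was not in both tables. In males, in females and in the interaction, 0 genes of the list were called. In the control sex comparison 17 of 76 were called higher and 1 lower, where 8.80% of all genes were called higher and 9.20% lower. The lower one was Ifngr2, a subunit of the interferon gamma receptor, at 27.8 to 39.9 CPM in control males and 21.2 to 25.9 CPM in control females, without overlap, a log2 fold change of -0.45 (SE 0.10, adjusted p = 0.0106, edgeR). Of 48 other interferon targets, 13 were called higher in control females. The RNA sensors Tlr7 and Ddx58 were also higher, at 0.89 (SE 0.27, adjusted p = 0.0357, edgeR) and 0.56 (SE 0.13, adjusted p = 0.0108, edgeR).

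By genotype, the nearest of these genes to a call was Tor3a, an ATPase induced by interferon, at 7.48 to 11.7 CPM in control females and 12.4 to 21.1 CPM in LKO females. Its groups did not overlap, and its log2 fold change was 0.61 (SE 0.14, adjusted p = 0.0507, edgeR), opposite in sign to the Ifit genes. In males Tor3a lay at 0.38 (SE 0.14, adjusted p = 0.313, edgeR), Tlr7 at 0.81 (SE 0.26, adjusted p = 0.274, edgeR) and Lgals3bp, a secreted glycoprotein induced by interferon, at 0.36 (SE 0.13, adjusted p = 0.302, edgeR). In females Ddx58 lay at -0.36 (SE 0.11, adjusted p = 0.139, edgeR) and Ifngr2 at 0.32 (SE 0.10, adjusted p = 0.118, edgeR). The phosphatases that restrain JAK signalling lay close to 0, with Ptpn1 at 0.17 (SE 0.09) in males and 0.15 (SE 0.11) in females and Ptpn6 at 0.03 (SE 0.09) and 0.18 (SE 0.10). In LKO livers 1 gene of the list was called higher in females and 1 lower, where 5.89% of all genes were called higher and 6.51% lower.

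Some Kupffer cell markers were higher in females. The Kupffer cell markers' summed level ranged from 409 to 788 CPM in control males, 611 to 909 CPM in LKO males, 634 to 1206 CPM in control females and 766 to 1191 CPM in LKO females. Of 7 markers, 3 were called higher in control females than in control males, against 8.80% of all genes tested. They were Clec4f at 0.92 (SE 0.19), Vsig4 at 1.03 (SE 0.23) and Timd4 at 1.45 (SE 0.24), with edgeR adjusted p of 0.00624, 0.00889 and 0.00173. In LKO livers 4 of 7 were called higher in females than in males, against 5.89% of all genes tested. By genotype, 0 of 7 were called in either sex. Control female replicate 6 held the highest sum of its group, 1206 CPM, and LKO female replicate 6 that of its group, 1191 CPM. Their averages over the members, relative to the control male mean, were 1.20 and 0.515. Of 8 monocyte and monocyte-derived macrophage markers, 3 were called higher in LKO females than in control females, against 127 of all 13684 genes tested. This direction was opposite to that of most members there. The sum of these markers ranged from 60.9 to 105 CPM in control females and 95.6 to 135 CPM in LKO females. In control females against control males, 6 of these 8 lay below 0, with a median of -0.73. Of the 8, 2 were called lower, against 9.20% of all genes tested. The sum of the 8 markers ranged from 63.9 to 176 CPM in control males and 64.4 to 188 CPM in LKO males. No marker of these 2 lists was at 0 in every sample of a group. The part of Kupffer cell or monocyte content in the differences between groups was not tested.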

How the data were processed

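Liver RNA of 23 samples was measured with poly-A selected dUTP libraries, per the labels' protocols, which keep the strand; whether counting used it is not given in the sources used here. The submitters' processing notes name HISAT2 2.0.5 and mm39. The authors deposited 1 table per sex with a raw count, an FPKM value (per gene length and library total) and other values per gene and sample, and 0 sample columns were unmapped. The deposited normalized count signal (count over a size factor) and the authors' p-values for LKO against control were not used. Counts were tested with edgeR 4.0.16 in R 4.3.3 (filterByExpr, TMM factors, quasi-likelihood test, Benjamini-Hochberg over all genes tested, a call being an adjusted p under 0.05), for each sex alone, controls alone, and all 23 samples for the interaction. CPM are counts scaled to library size by TMM over the 23 libraries and genes in both tables. The log2 fold changes were computed here from the deposited counts. DESeq2 1.42.0 was an alternative. The scripts were tested on simulated data. Marker, pathway and motif lists are descriptions; promoter sequences are from RefSeq, GRCm38.p6. The members and lists were chosen with earlier results of these data known. Counts over members include 2 members that are not reported here by name. Named genes were otherwise Cpt1a, Stat2 and the Irf members, called members (the 20 with the lowest p in a comparison), per family the member with the highest mean FPKM and those with the lowest p in each sex, the pathway genes with the lowest p per sub-list and sex, Ifng and Ifnb1.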

Additional observations from a re-analysis of the deposited data

Results flagged for a closer look

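In each group of 5 or 6 livers the named members, and Irf4, were examined for a liver far from the others, 136 checks in all, of which chance marks about 1 in 20. The result was 21 marks, 11 of them in control female replicate 6 and 7 in control male replicate 4. The members were checked in the same livers, so the checks are not independent and the marks are not separate events.

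Control female replicate 6 lay far above the other 5 control females for Bst2 (619 CPM, others 381 to 470), Gbp3 (51.1 CPM, others 18.2 to 24.1), Gbp7 (22.7 CPM, others 10.9 to 12.1), Ifi44 (29.5 CPM, others 8.16 to 11.8), Ifit1 (48.9 CPM, others 16.1 to 26.2) and Ifit3 (96.4 CPM, others 32.4 to 47.1). It also lay far above them for Ifit3b (23.1 CPM, others 7.60 to 10.2), Iigp1 (249 CPM, others 168 to 196), Irf7 (304 CPM, others 126 to 176), Oasl1 (54.1 CPM, others 22.6 to 33.6) and Oasl2 (37.8 CPM, others 12.1 to 18.8).

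Control male replicate 4 lay far above the other control males for Gbp10 (2.40 CPM, others 0.763 to 1.16), Ifit1 (15.7 CPM, others 5.08 to 7.35), Ifit3 (27.6 CPM, others 14.8 to 17.3), Ifit3b (6.40 CPM, others 2.17 to 3.12), Irf9 (45.1 CPM, others 24.1 to 28.5), Mx2 (7.60 CPM, others 2.84 to 3.93) and Oasl1 (40.0 CPM, others 17.8 to 21.3).

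LKO male replicate 1 was high for Irf1 at 26.0 CPM (others 17.3 to 20.5). For Irf4, which was too low for any fit, control female replicate 2 measured 0.579 CPM (others 0.122 to 0.254) and LKO female replicate 5 measured 1.9996 CPM (others 0.246 to 0.533).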

How the results depend on the processing

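Of 3385 values for 165 results on single named genes, 3260 kept their direction and their side of the threshold, 12 lost a call, 39 gained one and 74 changed sign. In males, the number of genes called was 2 with library size alone, 2 without a filter, 3 with at least 10 counts in every sample, 106 with DESeq2, 2 with the replicate block, 5 with all 23 samples in 1 fit and 1 to 2 with single livers left out, where 0 members were called and their median stayed between 0.23 and 0.43. In females, 1 member was called with RLE factors, 1 with library size alone, 1 without a filter, 6 of 554 genes with DESeq2 and 4 of 334 with the replicate block, while 94 genes were called with all 23 samples in 1 fit. With single livers left out, 87 to 233 genes and 0 to 1 members were called in females, at medians from -0.31 to -0.12. The interaction gave 3 members of 88 genes with DESeq2, and 0 to 17 genes and 0 to 2 members with single livers left out, at medians from -0.69 to -0.41. Control females against control males gave 15 members of 991 genes with the replicate block (Gbp2b, Gbp9, Ifi213, Oasl2 and Usp18 among the calls lost), and 1766 to 2947 genes and 20 to 34 members with single livers left out, at medians from 0.65 to 0.94. LKO females against LKO males gave 5 members with library size alone, and 1267 to 1893 genes and 4 to 9 members with single livers left out, at medians from 0.07 to 0.18.

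Sign changes outside the leave-one-out fits were these log2 fold changes. With the replicate block, Gbp2b lay at -0.042 and Mx2 at 0.072 in males, and Gbp10 at 0.014 between LKO sexes. With library size alone, Mx2 lay at 0.062 in males, Irf5 at -0.0036 in the interaction, Irf8 at -0.015 between control sexes, and Gbp9 at -0.0032, Irf7 at -0.0020 and Oas1a at -0.00087 between LKO sexes. With control male replicate 4 and control female replicate 6 both left out, an alternative chosen after seeing the data, Irf3 lay at -0.066 and Irf5 at -0.23 in the interaction, and Irf3 at 0.10, Irf5 at 0.17 and Irf8 at -0.063 between control sexes. With single livers left out, values on both sides of 0 were as follows. In males, the ranges were Gbp2b -0.0043 to 0.31, Iigp1 -0.14 to 0.25, Irf5 -0.35 to 0.059, Irf8 -0.0021 to 0.29 and Mx2 -0.24 to 0.32. In females, they were Bst2 -0.19 to 0.0070 and Ifi206 -0.27 to 0.019. In the interaction, they were Irf3 -0.069 to 0.12, Irf5 -0.26 to 0.18 and Irf8 -0.070 to 0.23. Between control sexes, they were Irf2 -0.15 to 0.051, Irf3 -0.080 to 0.11, Irf5 -0.23 to 0.20, Irf8 -0.068 to 0.19 and Stat2 -0.023 to 0.12. Between LKO sexes, they were Bst2 -0.12 to 0.035, Gbp10 -0.33 to 0.19, Gbp9 -0.020 to 0.10, Ifi27l2b -0.24 to 0.024, Irf1 -0.13 to 0.022, Irf3 -0.0084 to 0.094, Irf5 -0.12 to 0.033, Irf7 -0.049 to 0.14, Mx2 -0.21 to 0.18, Oas1a -0.075 to 0.15 and Usp18 -0.19 to 0.035. The cause was not tested. Same-numbered samples of the genotypes correlated at -0.30 to 0.38 in males and -0.00038 to 0.14 in females, not over 0.1 in every pair, so the numbers were not taken to pair the samples; 4 of 6 female and 1 of 5 male pairs correlated best with their own number. Whether depth limits low members, such as Gbp10 with 13 to 30 counts in control males, was not tested.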
